A study of Mus musculus with 32 samples.

Results

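The genes described here are 32 transcripts by which mature, resting astrocytes are usually recognised, here called the homeostatic astrocyte genes. They were chosen as a fixed list of names, with earlier results of these data known. All 32 were found among the 55291 genes of the astrocyte and oligodendrocyte tables. They were also found among the 53700 genes of the microglia table and the 17572 genes of the culture table. All libraries were made from TDP-43_Q331K animals, which express a mutated RNA-binding protein as a model of amyotrophic lateral sclerosis. No group lacked this transgene among the libraries described here, so a change with age in these animals and one of ordinary ageing cannot be told apart.

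ACSA2+ astrocytes from cortices and spinal cords were sampled at 3, 6 and 10 months (n = 4, 5 and 2 libraries). O4+ oligodendrocytes from the same tissues were sampled at 6 and 3 months (n = 4 each), and Cd11b+ microglia from cortices alone at 10 and 3 months (n = 4 and 3). Primary TDP-43_Q331K astrocytes, grown for 14 days, received 40 µM Omomyc, a miniprotein that inhibits MYC, or vehicle for 48 h (n = 3 each). Atp1b2 encodes the antigen that the ACSA2 antibody binds, so its level chose the astrocytes and is no finding between the sorts. The labels do not say which libraries share animals or cultures, so p-values measure only the spread between these libraries.

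Astrocytes clear glutamate and GABA from the synaptic cleft, take up the potassium that neurons release, move water and ions at the vessel wall, feed neurons with metabolites and lipids, and shape the extracellular matrix. The 32 genes were grouped by such roles. The first group takes up transmitters and handles amino acids: Slc1a2 (GLT-1) and Slc1a3 (GLAST) import glutamate, Glul (glutamine synthetase) converts it to glutamine, Slc6a11 (GAT-3) imports GABA, Slc7a10 (Asc-1) carries small neutral amino acids such as serine, Slc25a18 carries glutamate into mitochondria and Cbs starts the conversion of homocysteine to cysteine. The second group controls water, ions and volume: Aqp4 is a water channel, Kcnj10 (Kir4.1) a potassium channel, Slc4a4 a sodium bicarbonate cotransporter, Atp1b2 a subunit of the sodium pump, and Mlc1 and Hepacam are partner membrane proteins of astrocyte junctions. The third covers metabolism, lipid and zinc: Aldoc is a glycolytic aldolase, Aldh1l1 a folate enzyme, Acsbg1 an acyl-CoA synthetase, Lcat a cholesterol acyltransferase, Plpp3 a lipid phosphatase and Slc39a12 a zinc transporter. Sox9, Nfia and Id4 are transcriptional regulators of the glial lineage. The receptors and signalling proteins are Fgfr3 (fibroblast growth factor), Ntsr2 (neurotensin), Ntrk2 (BDNF), Ednrb (endothelin), F3 (tissue factor), the formin Daam2 and the calcium-binding protein S100b. The secreted and matrix proteins are Mfge8, which bridges dying cells to phagocytes, the protease Htra1 and the proteoglycan Bcan (brevican).

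A pair of libraries stood apart. In 3 month astrocyte replicate 4, 30 of the 32 genes were the lowest of the group and the other 2, Daam2 and S100b, the highest. Its genes were at 0.706 times the median of the other 3 month libraries, as the median over the 32. Its 32 genes summed to 44340 CPM (counts scaled to a common library total) against 62636 to 63404 CPM in the others. Its 20 myelin genes summed to 48851 CPM, the most of any astrocyte library. In 6 month oligodendrocyte replicate 1, Htra1 was at 888 CPM against 80.9 to 89.3 CPM in the other 3. Of the 32 genes, 15 were the lowest of the group and 12 the highest. The ratio to the median of the other 3 libraries had a median of 0.728 over the 32. Results that rest on either of this pair are given with and without it. In 6 month astrocyte replicate 5, examined in the same way, 11 of the 32 genes were the lowest of the group and 10 the highest. The lowest ones included Bcan and Slc7a10, and the median ratio to the other 6 month libraries was 0.937. Astrocyte libraries held 6151583 to 20763190 counts, O4+ libraries 9752907 to 18598533, Cd11b+ libraries 4145129 to 5612071 and the cultures 30117025 to 37470972.

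All 32 genes were abundant in the sorted astrocytes. Among 17204 genes shared by the tables, each lay in the top 10% by CPM at 3, 6 and 10 months, with a median percentile of 99.5, 99.6 and 99.6. Between genes, levels are compared in TPM, a unit that is scaled to transcript length. Glul was the most abundant of the 32, at 5933 ± 758 TPM (SD over the 11 astrocyte libraries), followed by Slc1a2 at 3876 ± 664 TPM. Atp1b2, Plpp3 and Aldoc followed at mean levels of 3562, 3453 and 2999 TPM. The least abundant were Nfia at 93.6 TPM, Cbs at 112 TPM and Aldh1l1 at 192 TPM, so the list spans genes of very unequal level.

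**Figure D1:**
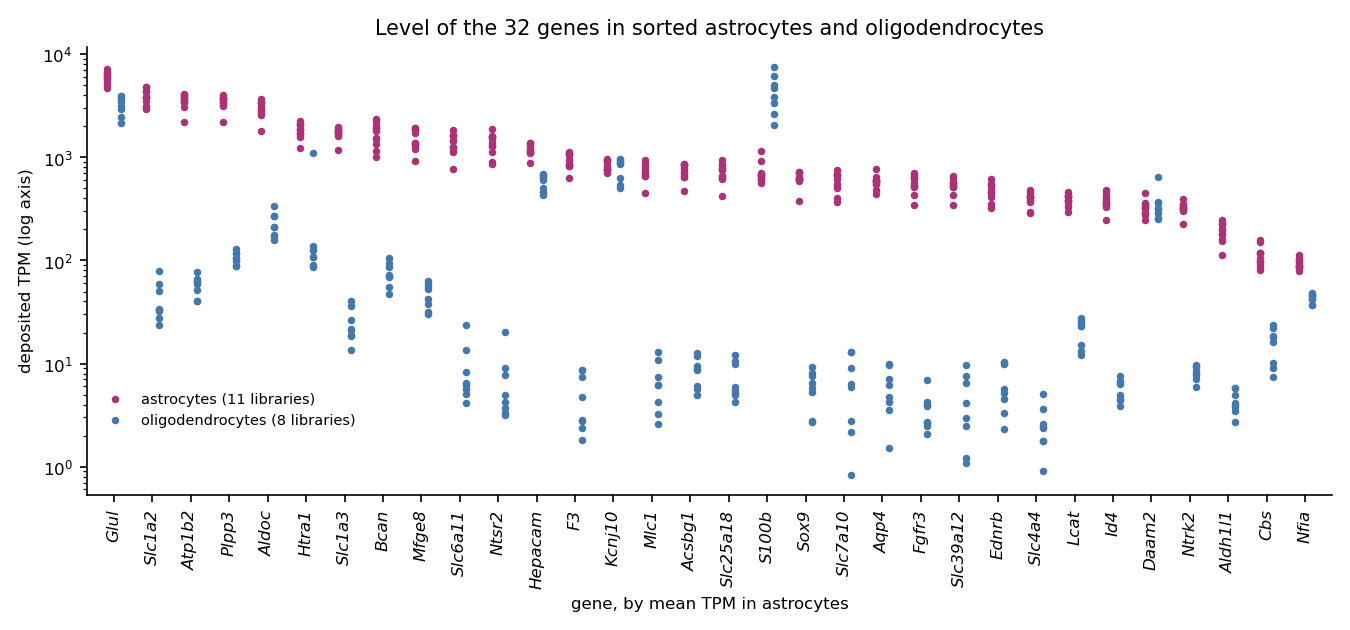
Level of each of the 32 genes in TPM (log axis), with 1 point per library, in astrocytes (11 libraries, magenta) and oligodendrocytes (8 libraries, blue), ordered by mean TPM in astrocytes. Most genes lie far higher in astrocytes, while Kcnj10 and Daam2 lie at about the same level in both and S100b is higher in oligodendrocytes, at a mean of 721 TPM in astrocytes and 4439 TPM in oligodendrocytes.

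The first comparison asked how the 32 genes changed between 3 and 6 months in astrocytes. Most did not pass the test. Kcnj10, the potassium channel, was lower at 6 months, and the matrix gene Bcan and the amino acid carrier Slc7a10 were higher. These 3 of 32 genes, 2 higher and 1 lower, stand against 14.6% of the 16189 tested genes called at an adjusted p under 0.05 (6.28% higher and 8.29% lower). In bulk samples, fewer cells of a type and less RNA per cell cannot be told apart.

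Kcnj10 (chromosome 1, 172341210 to 172374085 in GENCODE vM21 on GRCm38) was at 1220, 1062, 1070, 1109 and 1132 CPM at 6 months, against 1532, 1494, 1592 and 1483 CPM at 3 months. Every 6 month library lay below every 3 month library. The log2 fold change was -0.45 ± 0.10 (SE; adjusted p = 0.00589, edgeR quasi-likelihood test), and the call was kept with each 3 or 6 month library left out in turn, at adjusted p between 0.0073 and 0.0267. On the deposited TPM scale Kcnj10 averaged 939 ± 25.6, 760 ± 39.5 and 802 ± 37.6 TPM (SD) at 3, 6 and 10 months. Kcnj10 is also a transcript of oligodendrocytes, and in a joined fit it averaged 1159 CPM in astrocytes and 1303 CPM in oligodendrocytes. The 20 myelin genes were lower at 6 months too: 10 of the 20 fell and none rose, and their sum was 21038 to 32180 CPM at 6 months against 30924 to 48851 CPM at 3 months, with none of them at 0 in any astrocyte library. Their part in the Kcnj10 result was not tested.

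Bcan was at 2205, 2053, 2139, 2137 and 1705 CPM at 6 months, against 1688, 1842, 1418 and 1235 CPM at 3 months, and the groups overlapped in 1 pair of libraries. The change was 0.41 ± 0.13 (adjusted p = 0.0427). Slc7a10 was at 400, 386, 364, 359 and 324 CPM at 6 months, against 328, 336, 260 and 235 CPM at 3 months, again with a slight overlap. The change was 0.34 ± 0.11 (adjusted p = 0.0496). Neither call was stable. Slc7a10 was lost without 3 month replicate 3 or 4 or any of 6 month replicates 1 to 4 (adjusted p 0.0761 to 0.132), and Bcan without 3 month replicate 1, 3 or 4 or any of 6 month replicates 1 to 4 (0.0531 to 0.112). With only the libraries of these ages fitted, the adjusted p was 0.0566 for Slc7a10 and 0.0509 for Bcan.

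Some genes that missed the threshold came close to it. The GABA transporter Slc6a11 was at 2600, 2318, 2082, 2018 and 2049 CPM at 6 months, against 1926, 1762, 1742 and 1171 CPM at 3 months (0.42 ± 0.14, adjusted p = 0.0569). F3 was at 770, 750, 721, 739 and 670 CPM at 6 months, against 642, 624, 635 and 478 CPM at 3 months (0.30 ± 0.10, adjusted p = 0.0657). In both, all 6 month libraries lay above all 3 month libraries. With Kcnj10 these made 3 of 32 genes whose groups did not overlap, while 13.1% of all tested genes did not overlap. Ntsr2 had a log2 fold change of 0.35 ± 0.12 (adjusted p = 0.0645) with overlapping groups. Over the whole list 24 of 32 changes were positive, and their median was 0.14 against 0.003 for all genes. This lean rested partly on the library that stood apart. Without 3 month replicate 4 the median was 0.05, 20 changes were positive, no gene was called higher, and 2 were called lower, Kcnj10 and Slc1a2 (-0.41, adjusted p = 0.0399 against 0.21 with it).

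**Figure D2:**
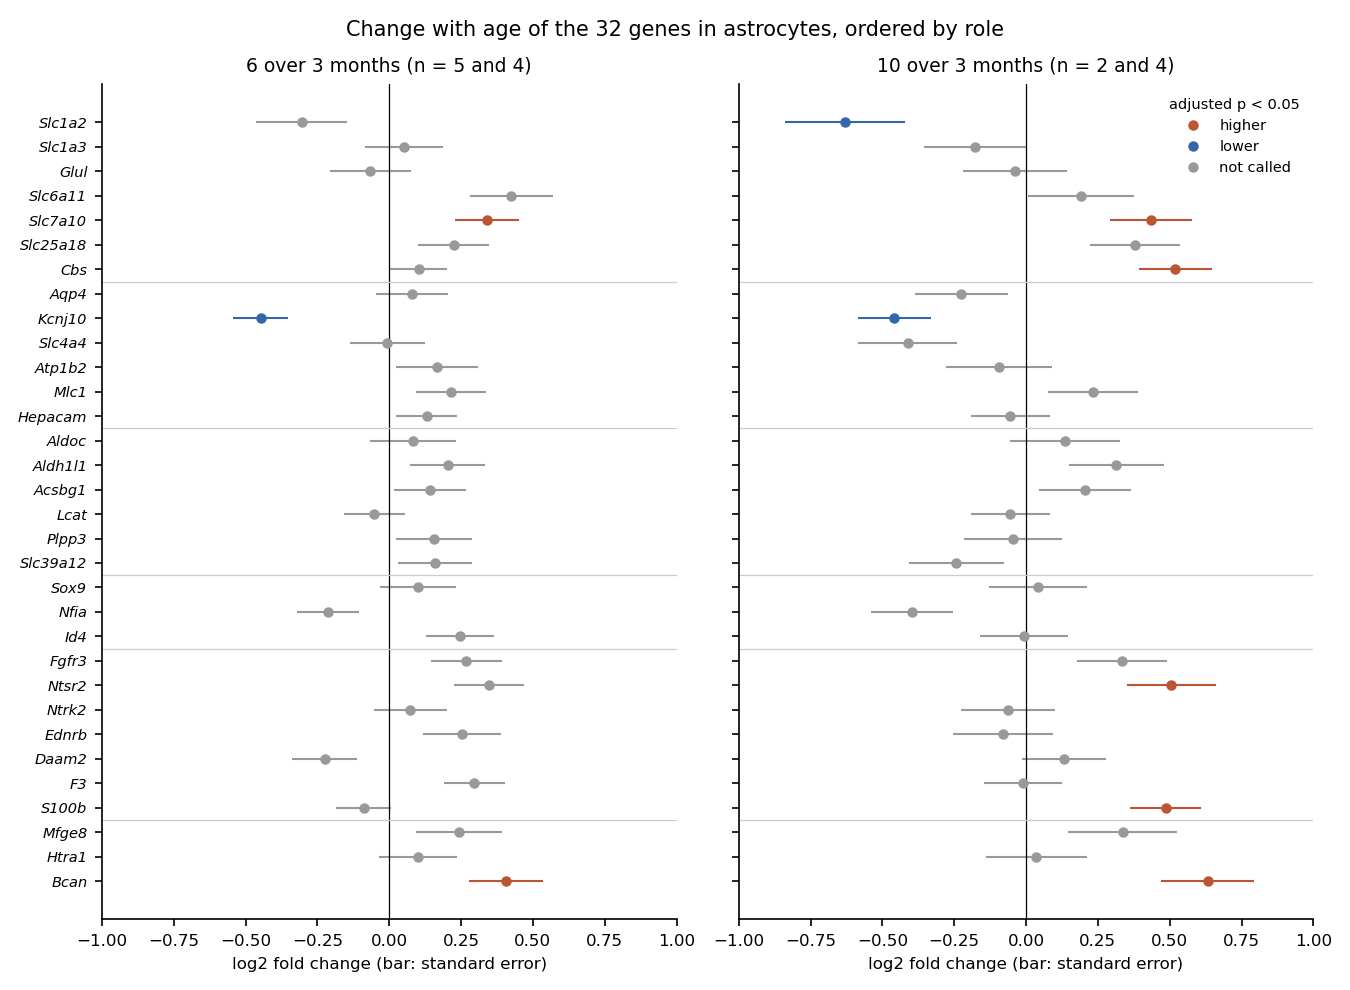
Log2 fold change (x axis, bars are standard errors) of each of the 32 genes at 6 over 3 months (left, n = 5 and 4 libraries) and at 10 over 3 months (right, n = 2 and 4), with grey lines between role groups and colour for calls at an adjusted p under 0.05. Kcnj10 is lower by a similar amount in both panels (-0.45 and -0.46), while the 5 genes called higher at 10 months lie between 0.43 and 0.63.

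At 10 months, 5 of the 32 genes were higher than at 3 months and 2 were lower, against 22.7% of all tested genes called (11.5% higher and 11.2% lower). Bcan, Cbs, Ntsr2, S100b and Slc7a10 rose, and the glutamate transporter Slc1a2 and Kcnj10 fell. Both astrocyte comparisons share the 3 month libraries, and only 2 libraries were made at 10 months. These libraries also differed in make-up. The gene CT010467.1 took 0.243% and 0.290% of the counts at 10 months, against 2.21% to 4.82% at 3 months. For mt-Rnr2 the shares were 0.0829% and 0.108% against 0.834% to 0.988%. Between the 3 and 10 month libraries, this difference and age cannot be told apart. At 6 months, replicate 3 had CT010467.1 at 0.840% and mt-Rnr2 at 0.107%. The other 6 month libraries had 2.23% to 3.37% and 0.364% to 1.03%. In all 7 called genes the 3 and 10 month groups did not overlap by CPM. The same held for 13 of the 32 genes in all and for 45.4% of all tested genes.

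The transmitter group changed both ways. Slc1a2 (chromosome 2, 102658659 to 102790784) was at 11734 and 10042 CPM at 10 months, against 17484, 18764, 19076 and 12095 CPM at 3 months, and at 11580 to 15917 CPM at 6 months. The change at 10 months was -0.63 ± 0.21 (adjusted p = 0.0383). Its lowest 3 month library is the one that stood apart, and without it the change was larger, with an adjusted p of 0.00395. The call was lost without any other of the 3 month or 10 month libraries (adjusted p 0.0719 to 0.242). On the TPM scale Slc1a2 averaged 4274 ± 840, 3812 ± 417 and 3239 ± 374 TPM (SD) at 3, 6 and 10 months, and libraries of all ages overlapped. The 10 month libraries were at 3503 and 2974 TPM, and 3 month replicate 4 lay between them at 3057 TPM. Cbs was at 304 and 292 CPM at 10 months against 224, 232, 195 and 181 CPM at 3 months (0.52 ± 0.13, adjusted p = 0.0077). Slc7a10 was at 410 and 373 CPM against 328, 336, 260 and 235 CPM (0.43 ± 0.14, adjusted p = 0.0354). Cbs was lost without 10 month replicate 1 (adjusted p = 0.0797), and Slc7a10 without 3 month replicate 3 or 4 or either 10 month library (0.0666 to 0.238). The other members of this group, Slc1a3, Glul, Slc6a11 and Slc25a18, had log2 fold changes of -0.18, -0.04, 0.19 and 0.38 and did not pass.

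Among the water and ion genes, 5 of 6 had negative changes at 10 over 3 months and Kcnj10 alone passed. Kcnj10 was at 1142 and 1078 CPM at 10 months against 1483 to 1592 CPM at 3 months (-0.46 ± 0.13, adjusted p = 0.0157), and at 10 over 6 months its change was -0.01 ± 0.12. The lower level of 6 months was thus also measured at 10 months. With a single 10 month library the call was lost (adjusted p = 0.0919 without replicate 1 and 0.13 without replicate 2). Slc4a4 was at 1114 and 866 CPM at 10 months against 1426, 1440, 1420 and 983 CPM at 3 months (-0.41 ± 0.17, adjusted p = 0.0912). Without 3 month replicate 4 it was called (-0.53, adjusted p = 0.0127), as was Slc39a12 (-0.38, adjusted p = 0.042), the zinc transporter. Aqp4, Hepacam and Mlc1 had log2 fold changes of -0.22, -0.05 and 0.23, with adjusted p of 0.339, 0.807 and 0.297.

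S100b (chromosome 10, 76253853 to 76261159) stood out for its timing. It was at 351 and 444 CPM at 10 months, 250 to 291 CPM at 6 months and 252, 271, 302 and 308 CPM at 3 months. Both 10 month libraries lay above every younger one. The change was 0.49 ± 0.12 at 10 over 3 months (adjusted p = 0.00988) and 0.58 ± 0.12 at 10 over 6 months (adjusted p = 0.0303). It was the single gene of the 32 called at 10 over 6 months, where 0.908% of all genes were called, and 11 of the 32 genes and 23.2% of all genes did not overlap. Both calls needed 10 month replicate 2, the higher library: without it the changes were 0.31 (adjusted p = 0.208) and 0.40 (adjusted p = 0.418). The later call was also lost without 6 month replicate 3 or 4 (0.0754 and 0.0577). S100b averaged 721 TPM in astrocytes and 4439 TPM in oligodendrocytes, and Mbp, the myelin basic protein transcript, was also higher at 10 over 6 months, at 3655 and 6596 CPM against 2119 to 2920 CPM (0.97 ± 0.19, adjusted p = 0.0236). The summed myelin genes were at 21186 and 32013 CPM at 10 months, within the range of 6 months, and the higher sum was in replicate 2. Their part in the S100b result was not tested.

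Bcan and Ntsr2 also rose. Bcan was at 2436 and 2356 CPM at 10 months against 1688, 1842, 1418 and 1235 CPM at 3 months (0.63 ± 0.16, adjusted p = 0.0104). Ntsr2 was at 1495 and 1288 CPM at 10 months against 1075, 1173, 860 and 811 CPM at 3 months (0.51 ± 0.15, adjusted p = 0.0251). Bcan was lost without either 10 month library (0.0872 and 0.0513), and Ntsr2 without 3 month replicate 3 or either 10 month library (0.0531 to 0.237). Of the lineage regulators, Sox9 and Id4 had log2 fold changes of 0.04 and -0.01 and did not pass. Nfia was at 244 and 242 CPM at 10 months against 340, 333, 330 and 277 CPM at 3 months, without overlap, and just missed the threshold (-0.40 ± 0.14, adjusted p = 0.0509). The metabolic genes Aldoc, Aldh1l1, Acsbg1, Lcat and Plpp3 had log2 fold changes between -0.05 and 0.31 at 10 over 3 months, and none of them passed in any of the 3 age comparisons. Over the 32 genes, 16 changes were positive and 16 negative, with a median of 0.01 against 0.02 for all genes, and without 3 month replicate 4 the median was -0.10, with 4 genes called higher and 5 lower.

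**Figure D3:**
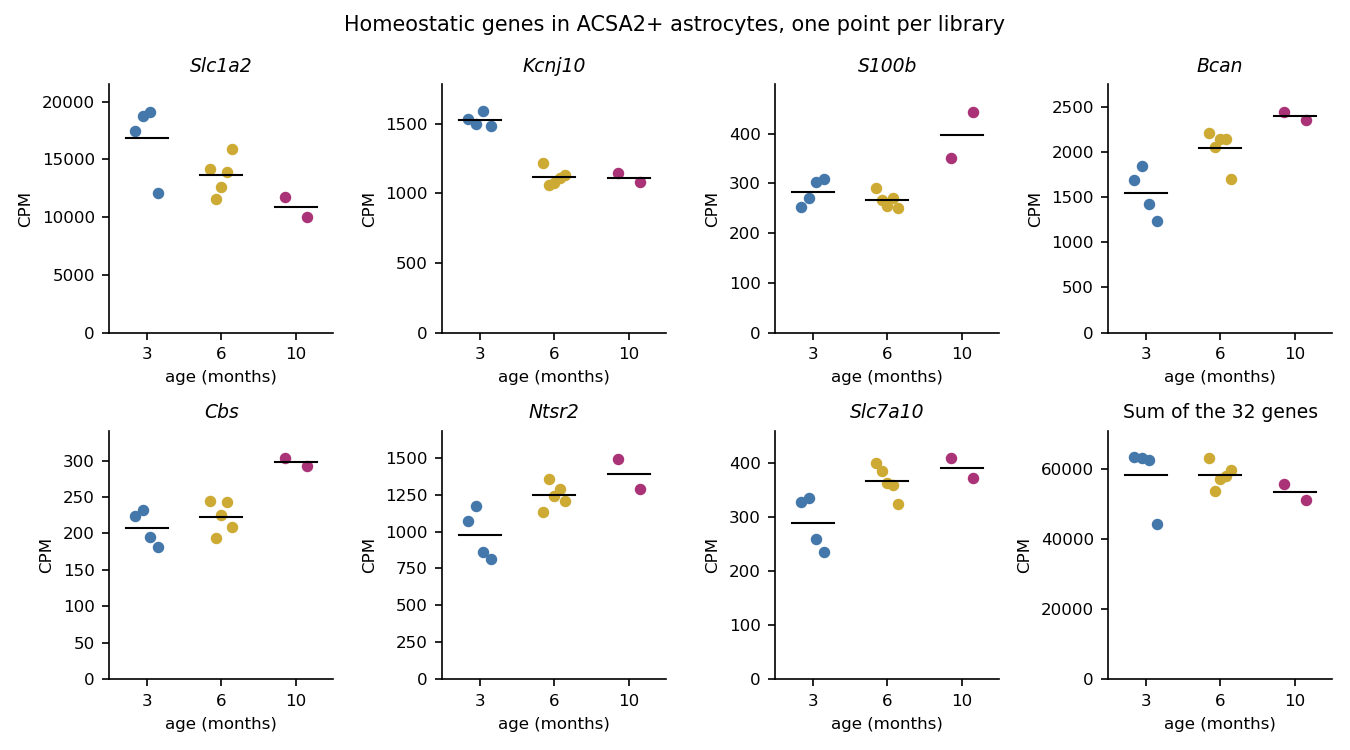
CPM of the 7 genes called at 10 over 3 months, and the sum of all 32, in each astrocyte library by age in months, with points for libraries (n = 4, 5 and 2) and lines for group means. Kcnj10 shifts between 3 and 6 months and S100b only at 10 months, and the lowest 3 month point for Slc1a2 and for the sum (44340 CPM) is replicate 4.

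Other genes of astrocytes moved in both directions as well. Of 53 further genes enriched in astrocytes, 11 rose and 3 fell at 6 months, and 8 rose and 5 fell at 10 months, each against 3 months. Of all tested genes, 6.28% were called higher and 8.29% lower at 6 months, and 11.5% higher and 11.2% lower at 10 months. At 6 months Etnppl, a phospholyase of phosphoethanolamine, changed by 1.03 (adjusted p = 0.00145), Itih3 by 0.68 and the urea transporter Slc14a1 by 0.50, while Dio2, the enzyme that activates thyroid hormone, changed by -0.63 (adjusted p = 0.00357), the growth factor receptor Fgfr2 by -0.45 and the phagocytic receptor Megf10 by -0.28. Dio2, Fgfr2 and Megf10 were lower at 10 months too, by -0.54, -0.52 and -0.48. Of 26 tested genes of reactive astrocytes, 5 rose and 1 fell at 6 months and 6 rose at 10 months, among them the complement genes C3 (1.70) and C4b (1.06, adjusted p = 0.00102) at 10 months. At 10 over 6 months none of either list was called by edgeR, where 0.908% of all genes were called.

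Markers of other cells also differed between the ages. The shares of all genes called, given for the astrocyte lists, stand beside these counts too. Of 14 choroid plexus genes, 7 were lower at 6 months and 9 at 10 months, and their sum averaged 858, 235 and 72.1 CPM at 3, 6 and 10 months, with at most 2 of them at 0 in a library. Of 10 ependymal genes, 8 were higher at 6 months and 6 at 10 months, with sums averaging 547, 776 and 935 CPM. Of 12 tested microglial genes, 2 were higher at 6 months and 4 at 10 months, and all 18 genes of that list, the untested ones included, summed to a mean of 57.1, 72.3 and 76.4 CPM.

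Some oligodendrocyte precursor genes were higher at 10 months, while their sum was not. At 10 over 3 months 5 of 12 were higher, among them C1ql1 (2.08, adjusted p = 0.00155), Cacng4 (0.58) and Neu4 (1.49), and C1ql1 was also higher at 10 over 6 months (1.75, adjusted p = 0.0297). Their sum averaged 1055, 811 and 970 CPM at 3, 6 and 10 months, and at 6 over 3 months 1 of the 12 was lower. Of 15 endothelial genes, 2 were lower at 6 months and 4 at 10 months, including Slco1a4 (-1.34, adjusted p = 0.00386), Cdh5 (-1.25) and Ly6c1 (-1.32) at 10 months, with sums averaging 425, 284 and 233 CPM. Of 11 tested mural and fibroblast genes, 3 were lower and 1 higher at 10 over 3 months, the lower ones being Abcc9 (-1.49), Rgs5 (-1.19) and Dcn (-1.96), and 1 was lower at 6 over 3 months. Of 10 tested dividing cell genes, 2 were lower at each later age, and of 12 tested neuronal genes 4 were lower at 6 months and 1 was higher at 10 months. The part of these cells in the changes of the 32 genes, Bcan and S100b included, was not tested.

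Promoter sequence was looked at for the E-box CACGTG, the motif that MYC is best known to bind, because the study concerns MYC, and for TTGGCA, part of the sequence bound by the NFI family to which Nfia belongs. RefSeq windows on GRCm38.p6 run 250 bases before to 50 bases after the start of a gene. Those of 29 of the 32 genes (33 windows) were searched on both strands. Aqp4, Atp1b2 and Sox9 were not part of the search, so the counts for the list do not cover them. CACGTG was in 2 of 33 windows (6.06%), those of Ntsr2 and Cbs, against 7.15% of 32851 windows of all genes. TTGGCA was in 5 of 33 windows (15.2%), of Hepacam, S100b, Aldoc and Daam2 (in both windows of Daam2), against 14.1% of all windows, and the motifs did not overlap. The windows shown are those of Kcnj10 (chr1:172340960-172341259, plus strand) and S100b (chr10:76253586-76253885, plus strand), whose changes with age came at different ages, and those of Ntsr2 (chr12:16653220-16653519, plus strand) and Cbs (chr17:31637156-31637455, minus strand), which hold CACGTG. Each runs 5′ to 3′, and capitals mark CACGTG or TTGGCA.
Kcnj10: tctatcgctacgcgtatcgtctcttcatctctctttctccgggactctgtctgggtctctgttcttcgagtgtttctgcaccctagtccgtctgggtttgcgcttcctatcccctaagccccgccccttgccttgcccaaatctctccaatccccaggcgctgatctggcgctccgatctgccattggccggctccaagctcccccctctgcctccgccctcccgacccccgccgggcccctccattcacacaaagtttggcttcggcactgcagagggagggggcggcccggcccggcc
S100b: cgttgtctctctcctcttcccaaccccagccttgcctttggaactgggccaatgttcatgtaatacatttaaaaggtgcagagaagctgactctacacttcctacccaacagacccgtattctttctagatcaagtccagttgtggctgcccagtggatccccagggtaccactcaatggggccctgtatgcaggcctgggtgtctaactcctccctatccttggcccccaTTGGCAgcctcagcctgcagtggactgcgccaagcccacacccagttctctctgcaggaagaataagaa
Ntsr2: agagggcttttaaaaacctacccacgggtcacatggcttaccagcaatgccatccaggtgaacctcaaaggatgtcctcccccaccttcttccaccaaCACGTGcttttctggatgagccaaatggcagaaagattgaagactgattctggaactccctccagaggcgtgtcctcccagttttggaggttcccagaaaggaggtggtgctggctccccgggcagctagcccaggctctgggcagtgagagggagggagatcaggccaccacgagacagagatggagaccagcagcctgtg
Cbs: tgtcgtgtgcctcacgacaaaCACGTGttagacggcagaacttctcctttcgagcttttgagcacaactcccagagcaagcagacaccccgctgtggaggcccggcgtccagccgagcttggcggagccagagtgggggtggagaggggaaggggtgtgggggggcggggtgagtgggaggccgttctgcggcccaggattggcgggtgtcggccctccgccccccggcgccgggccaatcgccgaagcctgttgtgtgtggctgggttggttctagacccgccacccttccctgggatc
Kcnj10 held neither motif, S100b held 1 TTGGCA close to the start of the gene, and Ntsr2 and Cbs held 1 CACGTG each, upstream of it. Ntsr2 and Cbs were both called higher at 10 over 3 months in sorted astrocytes. In culture under Omomyc their log2 fold changes were -0.37 and 0.23 and were not called.

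In culture, all 32 genes were listed, but at a rank that differed from that of sorted astrocytes. Under vehicle 24 of 32 lay in the top 10% of the shared genes by CPM, and Slc7a10, Slc6a11, Cbs, Ntsr2 and S100b lay below the median. Scaled per kilobase of exon, Mlc1 led at 408 ± 87.3 CPM per kilobase (SD), followed by Atp1b2 at 272 and Kcnj10 at 254, while Slc1a2 ranked 26 of the 32, at 12.1 CPM per kilobase. Slc7a10 was at 0.156 to 0.216 CPM under Omomyc and 0.188 to 0.23 CPM under vehicle and was the single member left out of the test. The culture libraries were made with another kit, so these levels are not compared by a test with those of sorted cells.

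**Figure D4:**
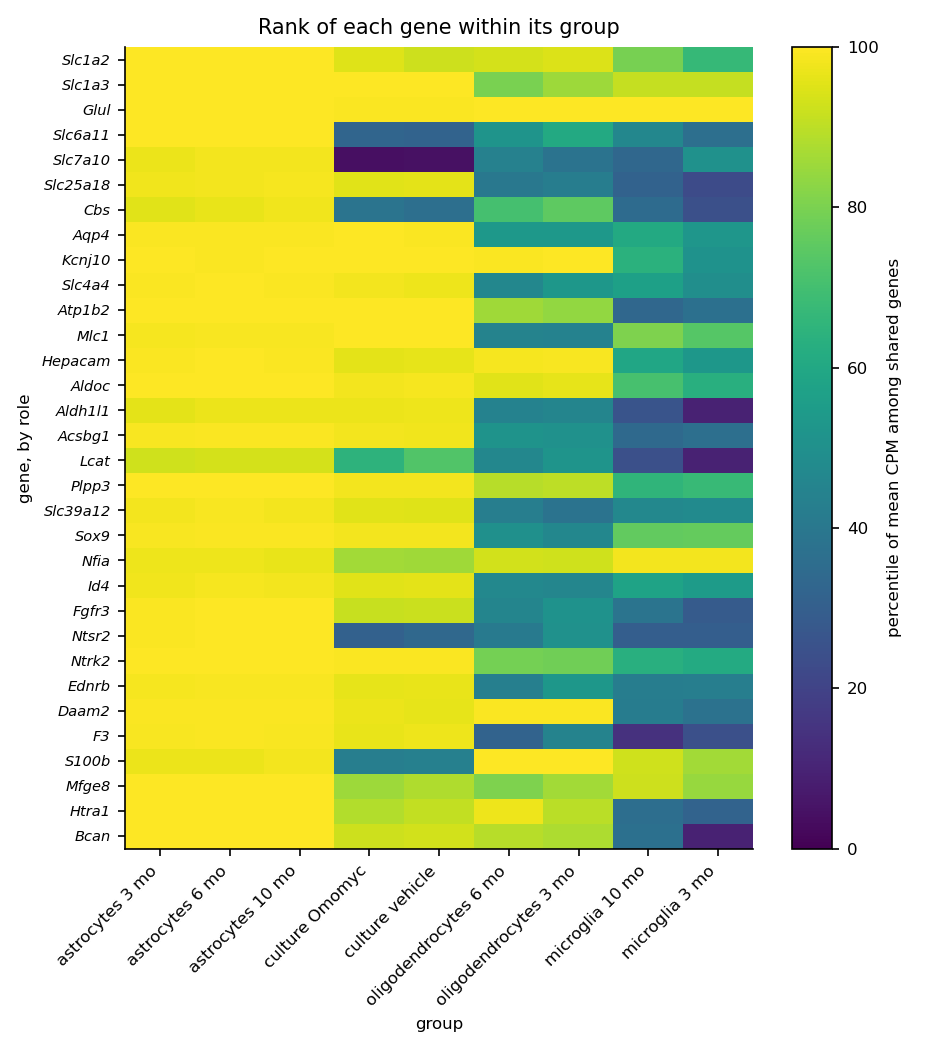
Percentile of mean CPM of each of the 32 genes (rows, by role) among 17204 genes shared by all tables, in each group (columns); CPM here are not scaled for gene length. All 32 genes are in the top 10% in sorted astrocytes, 23 and 24 of them in culture under Omomyc and vehicle, and 9 and 8 of them in oligodendrocytes at 6 and 3 months.

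Omomyc changed few of these genes in culture. Without regard to replicate number, edgeR called none of the 31 tested members, against 3 of 16119 genes (0.0186%), all lower. At an unadjusted p under 0.05 there were 5 of 31 members against 6.34% of all genes, DESeq2 called 1 member higher and 1 lower, and limma-voom called none. Libraries with the same replicate number deviated together in culture, with correlations between 0.515 and 0.797, so values from a fit with the number as a block are given beside the unblocked ones. In the blocked fit 3 members were higher and 2 lower, against 4.07% of all genes (2.23% higher and 1.84% lower).

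Genes of glutamate handling and bicarbonate transport were the ones called higher in the blocked fit. Slc1a2 was at 220, 210 and 204 CPM under Omomyc against 176, 140 and 161 CPM under vehicle. All Omomyc libraries lay above all vehicle libraries, and the change was 0.41 ± 0.10 (adjusted p = 0.527) unblocked and 0.42 ± 0.07 (adjusted p = 0.0161) blocked. Glul was at 1021, 1040 and 938 CPM under Omomyc against 815, 878 and 723 CPM under vehicle, again without overlap, with a log2 fold change of 0.31 ± 0.10 (adjusted p = 0.668) unblocked and 0.31 ± 0.06 (adjusted p = 0.031) blocked. Slc4a4 was at 477, 431 and 358 CPM under Omomyc against 369, 286 and 309 CPM under vehicle. Its groups overlapped, but each Omomyc library lay above the vehicle library of its number (unblocked 0.39 ± 0.14, adjusted p = 0.742; blocked 0.39 ± 0.08, adjusted p = 0.0312).

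F3 and Lcat were the ones called lower in the blocked fit. F3 was at 275, 267 and 267 CPM under Omomyc against 320, 346 and 324 CPM under vehicle, without overlap (unblocked -0.29 ± 0.07, adjusted p = 0.527; blocked -0.29 ± 0.06, adjusted p = 0.0333). Lcat was at 36.7, 42.2 and 31.0 CPM under Omomyc against 45.8, 66.2 and 42.7 CPM under vehicle, also without overlap (unblocked -0.49 ± 0.19, adjusted p = 0.776; blocked -0.48 ± 0.08, adjusted p = 0.0152). Counting Slc1a2, Glul, F3 and Lcat, 4 of 31 members did not overlap between treatments, against 12.8% of all tested genes. Kcnj10, which fell with age in sorted astrocytes, was at 1515, 1343 and 1207 CPM under Omomyc against 1592, 1267 and 1256 CPM under vehicle (blocked -0.01 ± 0.07, adjusted p = 0.927). S100b was at 10.5, 10.3 and 16.5 CPM under Omomyc against 12.4, 13.2 and 14.1 CPM under vehicle.

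Other lists moved in the blocked fit as well, where 2.23% of all genes were called higher and 1.84% lower. Of 33 reactive genes 9 were lower and 2 higher under Omomyc, the lower ones including Ptx3 (-0.80, adjusted p = 0.00162), Cd14 (-0.77, adjusted p = 0.00343) and Steap4 (-0.87, adjusted p = 0.00382), and the higher ones being Ptgs2 (0.71) and Srgn (0.57). Of 50 other astrocyte genes 2 were higher and 4 lower, among them Itih3 (-0.65) and Dio2 (-0.88). Of 17 microglial genes 9 were higher, with sums of 3038 to 6149 CPM under Omomyc against 2594 to 4754 CPM under vehicle, and none of the 17 was at 0 in any culture library. Their part in the changes of the homeostatic genes was not tested.

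**Figure D5:**
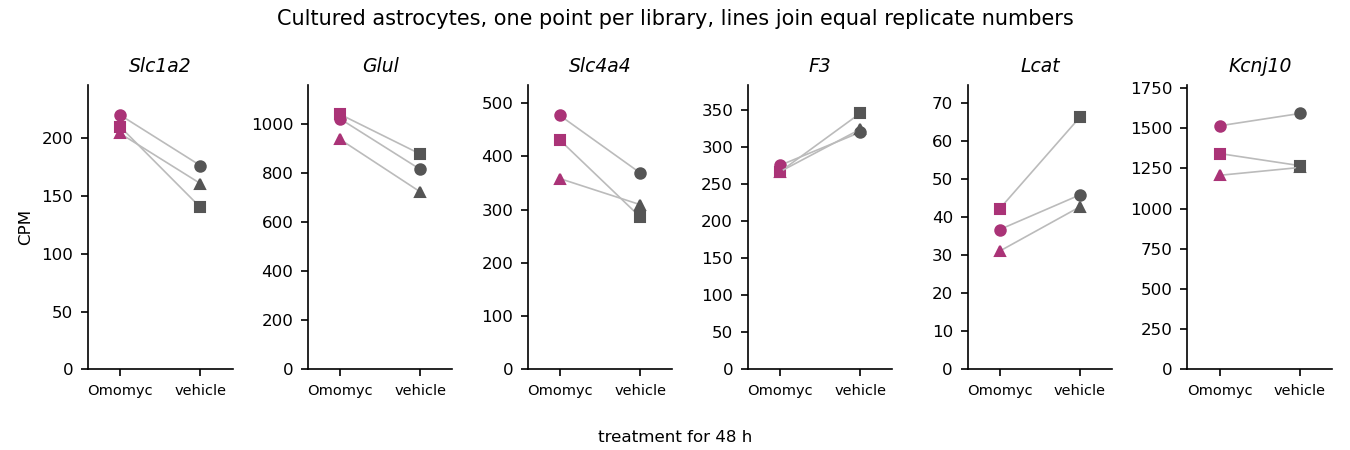
CPM of 6 of the 32 genes in cultured astrocytes after 48 h of Omomyc (left) or vehicle (right), with 1 point per library and lines that join libraries of the same replicate number. Slc1a2, Glul and Slc4a4 are higher and F3 and Lcat lower under Omomyc in all 3 pairs, while the pairs of Kcnj10 differ in direction.

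The 32 genes were then set against oligodendrocytes in a joined fit of the 3 and 6 month libraries (9 astrocyte and 8 oligodendrocyte libraries). In astrocytes 29 were higher and 2 lower than in oligodendrocytes, where 74.6% of all genes were called (38.7% higher and 35.9% lower). The median change was 5.68 against 0.03 for all genes. The counts of 29 and 2 were the same without the pair of libraries that stood apart, an alternative added after seeing the data. Astrocytes are recognised by these genes, so most were bound to be higher in the astrocyte sort. The 29 include Atp1b2, whose level chose the astrocytes.

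The widest gaps were in receptors and transporters. F3 was at a lowest, median and highest level of 415, 612 and 684 CPM in astrocytes, against 1.42, 3.05 and 6.63 CPM in oligodendrocytes (7.44 ± 0.13, adjusted p = 1.59e-19). Ntsr2 was at 704, 1054 and 1219 CPM in astrocytes, against 3.02, 4.33 and 19.4 CPM in oligodendrocytes (7.26 ± 0.33). Slc4a4, Slc6a11 and Fgfr3 followed, with differences of 7.05, 6.95 and 6.92. In all of these the cell types were far apart. Slc1a2 was at 10395, 12613 and 16911 CPM in astrocytes, against 95.9, 145 and 317 CPM in oligodendrocytes (6.30 ± 0.26).

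Some of the 32 genes separated the cell types weakly or not at all. Glul was at 4670, 5501 and 6806 CPM in astrocytes, against 2924, 3655 and 4627 CPM in oligodendrocytes (0.57 ± 0.11, adjusted p = 6.47e-05). Hepacam and Nfia differed by 0.73 ± 0.08 and 0.86 ± 0.08. In these 3 genes the groups were close but did not overlap. Kcnj10 was at 954, 1084 and 1411 CPM in astrocytes, against 981, 1433 and 1624 CPM in oligodendrocytes, with wide overlap (-0.15 ± 0.09, adjusted p = 0.129). Daam2 was at 621, 761 and 903 CPM in astrocytes, against 847, 934 and 1971 CPM in oligodendrocytes (-0.47 ± 0.14, adjusted p = 0.00454), with overlap. S100b, often used as an astrocyte marker, went the other way without overlap, at 224, 244 and 268 CPM in astrocytes, against 942, 1938 and 3946 CPM in oligodendrocytes (-3.02 ± 0.16, adjusted p = 1.28e-12). Htra1 differed by 2.84 ± 0.47, with 6 month oligodendrocyte replicate 1 within the astrocyte range, and by 3.72 without that library. All 20 myelin genes were lower in the astrocyte sort.

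Between 3 and 6 months, oligodendrocytes showed changes in a few of the 32 genes: 1 was higher and 2 were lower, against 24.4% of 14050 genes called (14.9% higher and 9.46% lower). S100b was at 1620, 3596, 2150 and 2857 CPM at 6 months against 1017, 810, 1267 and 1857 CPM at 3 months (1.05 ± 0.31, adjusted p = 0.0376), with overlap in 1 pair. This call was lost without any 3 month library but replicate 4 and without 6 month replicate 2, 3 or 4 (adjusted p 0.0595 to 0.102). Mfge8 was at 55.6, 46.3, 50.4 and 46.3 CPM at 6 months against 71.7, 65.0, 74.8 and 70.5 CPM at 3 months (-0.51 ± 0.08, adjusted p = 0.00213). F3 was at 1.29, 2.30, 1.71 and 2.18 CPM at 6 months against 5.70, 5.69, 4.76 and 3.17 CPM at 3 months (-1.37 ± 0.26, adjusted p = 0.00451). The groups of Mfge8 and F3 did not overlap, as in 26.5% of all tested genes, and both calls held in all 8 fits that left out a library.

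Without 6 month oligodendrocyte replicate 1, 7 of the 32 genes were lower at 6 months in oligodendrocytes. The added ones were Kcnj10 (-0.45, adjusted p = 0.000322), Cbs (-0.85), Lcat (-0.64), Glul (-0.26) and Hepacam (-0.25). Kcnj10 was at 1480, 894, 973 and 905 CPM at 6 months against 1258, 1232, 1287 and 1269 CPM at 3 months, so that 3 of the 4 libraries of 6 months lay below all of 3 months and replicate 1 above them. At 6 months all 15 endothelial genes, 7 of 10 tested mural and fibroblast genes and 5 of 14 choroid plexus genes were higher in this sort. The endothelial sum was 328 to 948 CPM at 6 months against 87.0 to 112 CPM at 3 months, with no gene at 0. Of 12 neuronal genes tested, 6 were higher, among them Stmn2 (1.64), Nefl (0.92) and Snap25 (1.42). Other lists were lower in part. Of 12 precursor genes, 4 were lower, including Pdgfra (-1.69), C1ql1 (-1.55) and Sapcd2 (-1.63), and of 7 tested dividing cell genes 4 were lower, including Mki67 (-2.32), Tpx2 (-0.90) and Top2a (-2.25). The precursor sum was 2121 to 2388 CPM at 6 months against 2488 to 2783 CPM at 3 months. Of the 20 myelin genes 11 were lower, including Gjb1 (-0.75) and Trf (-0.75), and 2 were higher, Mbp (1.55) and Mobp (1.27). The part of these cells in the changes of the 32 genes was not tested.

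The change between 3 and 6 months differed between the cell types for 4 of the 32 genes, tested as the change in astrocytes minus that in oligodendrocytes. F3 (1.75 ± 0.24, adjusted p = 6.98e-05), Ednrb (1.25 ± 0.33, adjusted p = 0.0137) and Mfge8 (0.83 ± 0.20, adjusted p = 0.00758) had the higher change in astrocytes, and S100b (-1.05 ± 0.30, adjusted p = 0.0214) had the higher change in oligodendrocytes. Of all genes 16.4% were called (6.44% higher and 9.97% lower). For Ednrb neither cell type passed alone, with changes of 0.25 in astrocytes and -0.89 in oligodendrocytes. The first 3 calls were kept with each of the 17 libraries left out, and S100b was lost without 3 month oligodendrocyte replicate 1 (adjusted p = 0.0506) or 6 month oligodendrocyte replicate 2 (0.0518). Kcnj10, lower at 6 months in astrocytes, had a difference of -0.11 ± 0.18 (adjusted p = 0.71). Without 6 month oligodendrocyte replicate 1, 6 genes were called higher, with Cbs (1.03, adjusted p = 7.6e-05), Hepacam (0.47, adjusted p = 0.0212) and Lcat (0.68, adjusted p = 0.0119) added, and without 3 month oligodendrocyte replicate 3 or 4 there were 5.

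In microglia the 32 genes were spread over the whole range of levels. By CPM 16 of them lay below the median of the shared genes at both ages, while 5 lay in the top 10% at 10 months and 3 at 3 months. Glul was the highest, at the 99.6 percentile at 10 months and the 99.7 percentile at 3 months, and it was at 841 to 1120 CPM at 10 months against 726 to 1072 CPM at 3 months (0.01 ± 0.14, not called). Nfia, S100b, Mfge8 and Slc1a3 were at the 98.3, 92.9, 92.2 and 91.3 percentiles at 10 months. The filter on low counts was passed by 24 of the 32. Not tested were Slc25a18, Cbs, Aldh1l1, Acsbg1, Lcat, Ntsr2, F3 and Bcan. At 10 over 3 months 2 of the 24 were higher, against 3.21% of 12320 genes called (1.94% higher and 1.27% lower). Among the 24 that passed the filter, 19 log2 fold changes were positive, with a median of 0.65 against 0.005 for all genes. Over the 23 to 27 members tested with a library left out, the median was 0.46 to 0.72. A member could pass the filter through the libraries of 1 age alone. Fgfr3, for one, had 4, 14, 12 and 21 counts at 10 months against 1, 0 and 8 at 3 months. The signs and medians of the tested members therefore cannot show a change of the list. Slc1a2 was at 38.1, 34.7, 41.8 and 25.2 CPM at 10 months against 19.0, 14.9 and 15.9 CPM at 3 months (1.07 ± 0.25, adjusted p = 0.0298). S100b was at 99.3, 94.4, 87.1 and 170 CPM at 10 months against 52.0, 76.0 and 43.2 CPM at 3 months (0.98 ± 0.24, adjusted p = 0.0364). Neither overlapped. Of the 24 genes, 5 did not overlap, against 16.8% of all tested genes.

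Each microglial call was lost in 5 of the 7 fits that left out a library. Slc1a2 was lost without 10 month replicate 1, 2 or 3 or 3 month replicate 2 or 3 (adjusted p 0.0565 to 0.115), and S100b without 10 month replicate 1, 3 or 4 or 3 month replicate 1 or 3 (0.0632 to 0.12). Of 27 other astrocyte genes tested, 1 was higher, Apoe (1.94, adjusted p = 8.76e-05), and Bcan, Lcat and Aldh1l1 were at 0 in all 3 month libraries. The myelin genes, of which 1 of 20 was called, summed to 2014 to 2703 CPM at 10 months against 1462 to 2327 CPM at 3 months. Their part in these results was not tested. Nfia was high in microglia as well, at 304 to 362 CPM at 10 months against 278 to 392 CPM at 3 months (0.01 ± 0.13).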

How the data were processed

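Expression was measured by RNA sequencing in 32 libraries. Per the labels' protocols, sorted astrocytes and oligodendrocytes were prepared with a poly(A) kit with molecular identifiers (CORALL), microglia with a 3′ kit (QuantSeq) and cultures with a kit from Watchmaker with Twist identifier adapters, so levels are compared by test only where kit and table allow. Tools named by the submitters' processing notes are featureCounts 2.0.1, UMI-tools 1.0.1, STAR 2.7.7a, DESeq2 and fastp, and the builds named are GRCm39, GRCm38.p6 and mm10. Their use per table is not stated there. The authors deposited raw counts per gene in 4 tables, and TPM values beside the counts of sorted astrocytes and oligodendrocytes, which were used here only to set levels between genes. Microglia and culture IDs were named by a GENCODE table, which matched 52093 of 53700 and 17559 of 17572.

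The counts were fitted with edgeR 4.0.16 in R 4.3.3 (TMM scaling, genes kept by filterByExpr with a minimum count of 10, robust quasi-likelihood F test, two-sided), and p-values were adjusted by Benjamini-Hochberg over all genes tested. A call is an adjusted p under 0.05, and errors beside log2 fold changes are standard errors. CPM are TMM-scaled within a table. All 3 ages of astrocytes shared 1 fit, and the joined fit held 17 libraries. The smallest total count was 4145129 per library, which limits the precision for genes of few counts. The fits were tested on simulated 2-fold changes. Alternatives were other scaling, no filter, DESeq2 1.42.0, limma-voom (limma 3.58.1), a replicate block, the 2 ages alone, and each library left out. Replicate numbers were taken as pairs in culture, where same-numbered libraries correlated at 0.515 to 0.797 in their deviations from the group means. The labels name no shared animal or culture.

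The 32 genes and the other lists were chosen with earlier results of these data known. All 32 were named; every library's values were given for up to 8 called members of a comparison, by size of change (5 CPM or more in the group with the higher mean), and for members a role group needed. Of other lists, up to 3 called genes in each direction were named by smallest p.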

Additional observations from a re-analysis of the deposited data

Results flagged for a closer look

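In 136 sets of 4 or 5 libraries (1 gene in 1 group), 24 had a library whose gap to its nearest neighbour was wide for the range of the set. Chance gives about 1 in 20 for independent sets. These sets share libraries, so the 24 cannot be set against that rate. In 3 month astrocytes, 10 of these were replicate 4 as the lowest library, for Slc1a3 (3010 CPM), Aqp4 (826 CPM), Slc4a4 (983 CPM), Atp1b2 (2725.5 CPM), Mlc1 (382 CPM), Aldoc (1784 CPM), Plpp3 (2098 CPM), Sox9 (473 CPM), Nfia (277 CPM) and F3 (478 CPM). In 6 month astrocytes, replicate 5 was far above the others for Aqp4 (1337 CPM), Slc39a12 (556 CPM), Nfia (346 CPM) and Ntrk2 (2129 CPM).

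In 6 month oligodendrocytes, replicate 1 was far above the others for Cbs (49.6 CPM), Kcnj10 (1480.5 CPM), Hepacam (608 CPM), Daam2 (1796.5 CPM) and Htra1 (888 CPM), and replicate 2 was far below them for Slc1a3 (37.5 CPM). In 3 month oligodendrocytes, replicate 2 was far above for Id4 (7.59 CPM), and replicate 4 far below for Ntrk2 (29.9 CPM) and Ednrb (5.10 CPM). In 10 month microglia, replicate 4 was far above for S100b (170 CPM).

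The change between 3 and 6 months differed between astrocytes and oligodendrocytes by the interaction test for F3 (1.75, astrocytes minus oligodendrocytes on the log2 scale), Ednrb (1.25), Mfge8 (0.83) and S100b (-1.05).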

How the results depend on the processing

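For named genes, 1430 alternative values kept their side of the threshold, with the same direction where they were called. Another 66 lost a call and 63 gained one, and 0 of the values called in either fit reversed. Direction was not compared where neither fit made a call. At 6 over 3 months in astrocytes, the 2 members called higher became 5 without the filter, with DESeq2 or with limma-voom, 1 with scaling that left out other cells' genes and 0 with only these ages fitted. At 10 over 3 months, 5 higher became 3 with only these ages, and 2 lower became 4 without the filter or with DESeq2. At 10 over 6 months, 1 higher became 2 with DESeq2, and 147 genes in all became 578 without the filter and 609 with DESeq2. In oligodendrocytes without the filter, 1 higher became 0 and 2 lower became 4, and in the interaction 1 lower became 0. In microglia 395 genes became 730 without the filter and 748 with DESeq2. In culture DESeq2 called 1 member higher and 1 lower, and 97 genes in all. Removing both libraries that stood apart, chosen after seeing the data, gave 6 higher in the interaction. The causes were not tested.

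With the replicate block, members higher at 10 over 3 months became 3, at 10 over 6 months 0 (56 genes in all) and in microglia 1 (211 in all), where same-numbered libraries did not deviate together. In culture, where they did, the block gave 3 members higher and 2 lower, and 656 genes in all. The culture pairs were taken from these same counts, as the labels name no shared culture. The block moved no other count of called members.

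Leaving out 1 library at a time gave, at 6 over 3 months in astrocytes, 0 to 5 members higher, 1 to 2 lower and 1161 to 2637 genes called. At 10 over 3 months it gave 1 to 5 higher, 0 to 5 lower and 1052 to 3713 genes, and at 10 over 6 months 0 to 1 higher and 11 to 320 genes. Oligodendrocytes gave 0 to 1 higher, 2 to 7 lower and 2214 to 4925 genes. Microglia gave 0 to 2 higher and 51 to 396 genes, culture 0 to 1 genes in all, and the interaction 3 to 6 higher and 0 to 1 lower. Fits with 1 library left at 10 months assume that it varies like the others. Members of few counts in microglia and culture, such as Slc7a10, are limited by depth.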
